A study of Mus musculus with 20 samples.

Results

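The 9 genes described here encode chemokine and lipid receptors, most of which help to place B cells in or around the lymphoid follicle. They comprise 5 receptors for chemokines (Cxcr4, Cxcr5, Ccr6, Ccr7 and Ccbp2, the older symbol of Ackr2), 3 for sphingosine 1-phosphate (S1pr1, S1pr2 and S1pr4) and 1 for oxysterols (Gpr183, also called EBI2). They were chosen by name from the 23382 gene symbols of the files, and all 9 passed the filter on low values, under which 11386 genes were tested. Cxcr4 protein was part of the sort, so the difference of its transcript between the sorted populations is given as a description with no test. RNA was sequenced from mouse germinal centre B cells in 20 libraries, 5 in each of 4 groups. All groups carried 1 copy of Cgamma1Cre, a Cre recombinase expressed from the immunoglobulin gamma 1 constant region locus and so from antigen-activated B cells onward. Control mice were wild type at Myd88 and the mutants were heterozygous for Myd88L252P, an allele of the adaptor of Toll-like and interleukin-1 receptors. The centroblast gate was B220+FAS+GL7+CXCR4+CD86-, and the centrocyte gate was B220+FAS+GL7+CXCR4-CD86+. The labels give no ages and leave unsaid whether each library is a mouse of its own. The p-values therefore measure only the spread between these libraries, which may be technical.

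Germinal centre B cells shuttle between a dark zone of dividing centroblasts and a light zone of centrocytes that test their antigen receptors. CXCR4 binds CXCL12 made by dark zone stroma and draws cells there, whereas CXCR5 binds CXCL13 of follicular dendritic cells and keeps cells in the follicle and light zone. CCR7 draws cells to the T cell zone, CCR6 binds CCL20 and is used as a surface marker of light zone precursors of memory B cells, and CCBP2 is an atypical receptor that takes up inflammatory CC chemokines without signalling through G proteins. S1PR2 signals through G alpha 13 to inhibit migration and confine cells to the germinal centre, S1PR1 signals through Gi and lets lymphocytes leave lymphoid organs, S1PR4 is a lymphoid receptor of the same lipid, and GPR183 leads activated B cells to the outer follicle and is normally turned down in germinal centres.

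On GRCm38, with GENCODE M21 gene models, Cxcr4 lies at chr1:128588199-128592293, Cxcr5 at chr9:44511787-44561877, Ccr6 at chr17:8236043-8257141, Ccr7 at chr11:99144196-99155077 and Ccbp2 at chr9:121898355-121911074. S1pr1 lies at chr3:115710433-115715072, S1pr2 at chr9:20962361-20976781, S1pr4 at chr10:81497747-81500132 and Gpr183 at chr14:121952551-121965195. Ccr6 and Ccbp2 are on the plus strand and the other 7 genes on the minus strand. The coding sequence lies in 1 exon in Ccr6, Ccbp2, S1pr1, S1pr2, S1pr4 and Gpr183, in 2 exons in Cxcr4 and Cxcr5, and in 3 in Ccr7.

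RefSeq promoters on GRCm38.p6 were matched for 6 of the 9 genes (Cxcr4, Ccr6, Ccbp2, S1pr2, S1pr4 and Gpr183). The 250 bases before the start site are printed for Cxcr4, Ccbp2 and Ccr6, the 3 members with a promoter entry that differed between the genotypes. Capitals mark matches, on either strand, to any of 6 motifs. These were TATAAA for the TATA box, TGANTCA for AP-1, TGTTTAC for FOXO, CCNCNCCC for KLF and SP factors, TGACGTCA for the cAMP response element, and an NF-kB motif of GGG, any 5 bases and then CC. The Cxcr4 window is chr1:128592300-128592549, the Ccbp2 window chr9:121898105-121898354, and the Ccr6 windows chr17:8235793-8236042 and chr17:8242276-8242525, each printed 5′ to 3′ along the strand of its gene.
Cxcr4: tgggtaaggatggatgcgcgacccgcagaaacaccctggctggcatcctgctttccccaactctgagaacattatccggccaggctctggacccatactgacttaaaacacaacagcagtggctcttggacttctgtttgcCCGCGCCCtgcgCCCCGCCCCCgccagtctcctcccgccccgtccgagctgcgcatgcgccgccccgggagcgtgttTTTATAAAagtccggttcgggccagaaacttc
Ccbp2: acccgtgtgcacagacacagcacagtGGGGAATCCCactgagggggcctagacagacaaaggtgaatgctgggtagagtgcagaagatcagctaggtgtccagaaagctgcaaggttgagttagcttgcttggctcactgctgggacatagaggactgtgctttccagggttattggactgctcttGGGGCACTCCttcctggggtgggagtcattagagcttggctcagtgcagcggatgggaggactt
Ccr6, first start: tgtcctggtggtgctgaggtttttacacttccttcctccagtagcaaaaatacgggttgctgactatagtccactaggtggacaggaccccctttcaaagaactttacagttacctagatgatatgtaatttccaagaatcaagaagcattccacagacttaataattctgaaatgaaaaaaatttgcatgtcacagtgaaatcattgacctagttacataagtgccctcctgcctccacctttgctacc
Ccr6, second start: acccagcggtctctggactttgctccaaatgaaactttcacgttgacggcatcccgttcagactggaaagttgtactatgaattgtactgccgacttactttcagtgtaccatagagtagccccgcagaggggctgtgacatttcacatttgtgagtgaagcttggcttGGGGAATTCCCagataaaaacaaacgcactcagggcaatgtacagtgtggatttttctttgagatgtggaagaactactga

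Counting the base before the start site as -1, the Cxcr4 window had 2 overlapping TATAAA matches, 1 on each strand, that began at -32 and -30. It also had 3 CCNCNCCC matches, which began at -109, -97 and -95. The Ccbp2 window had 2 NF-kB motif matches, at -224 and -64, and the window of the second Ccr6 start had 2 that overlapped, at -81 and -80. No searched letters were found at the first Ccr6 start. Of 32536 RefSeq mouse promoters of the same length, 12.3% held TATAAA, 46% the NF-kB motif and 46.2% CCNCNCCC, against 6.73% with TGANTCA, 3.17% with TGTTTAC and 1.56% with TGACGTCA. The GC content was 61.2% for Cxcr4, 55.2% for Ccbp2 and 41.2% and 46% for the Ccr6 starts, and the median of all promoters was 52.4%.

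Values are TPM, a measure of transcript abundance, which correct for transcript length and sum to the same total in each library, so levels can be set side by side between genes. The files give no read depth. Libraries 4 and 5 of the centroblast mutants stood apart, with 12895 and 12719 genes above 0 against 13053 to 14092 in the other 18, and with 12.5% and 17.1% of TPM from ribosomal protein genes against 7.37% to 10.01%. Comparisons that involve centroblast mutants were therefore also fitted without these 2 libraries, an alternative chosen after the data were seen. Centroblast mutant 5 was the lowest library of its group for 8 of the 9 members, and centroblast mutant 1 was the highest for 6. In these bulk samples, fewer cells of a type and less RNA per cell cannot be told apart. The 12 germinal centre B cell markers summed here (members excluded) were above 0 in every group, with group means of 12305 to 14050 TPM in sum. Cd3e, a defining T cell marker, had group means of 0.0551 to 0.613 TPM. The list of 11 T cell markers that holds it had group means of 153 to 238 TPM in sum.

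**Figure D1:**
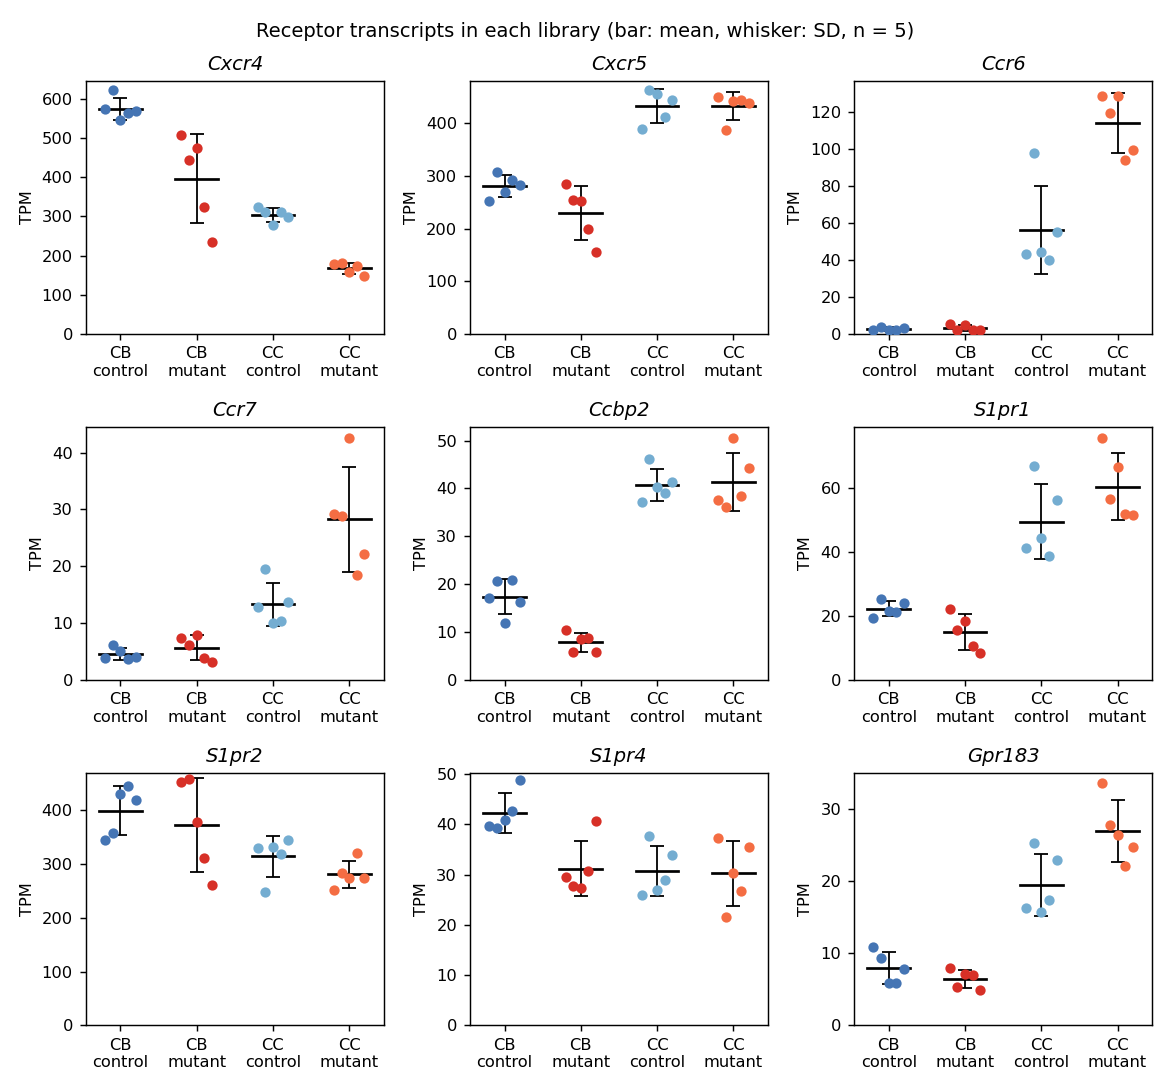
Each panel plots TPM of 1 receptor gene on a linear axis from 0, with a point per library (5 in each of the 4 groups, CB for centroblasts and CC for centrocytes), the mean as a bar and the SD as a whisker. Ccr6 stays under 6 TPM in all 10 centroblast libraries and over 40 in all 10 centrocyte libraries, and Cxcr4 is lower in mutants than in controls in both populations without overlap.

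In control centroblasts the members spanned from 575 ± 28.3 TPM for Cxcr4 to 2.60 ± 0.867 TPM for Ccr6 (SD, n = 5). Cxcr4 ranked 227th of the 11386 tested genes by mean TPM there, S1pr2 ranked 422nd at 399 ± 45.5 TPM and Cxcr5 645th at 281 ± 21.1 TPM. The other members were far less abundant, at 42.3 ± 3.94 TPM for S1pr4, 22.3 ± 2.35 for S1pr1, 17.3 ± 3.70 for Ccbp2, 7.96 ± 2.22 for Gpr183 and 4.52 ± 1.07 for Ccr7. In control centrocytes Cxcr5 led at 433 ± 31.8 TPM, followed by S1pr2 at 314 ± 38.5 and Cxcr4 at 304 ± 17.7, whose libraries overlapped. Ccr6 moved from rank 9774 in control centroblasts to rank 3689 in control centrocytes and rank 1843 in mutant centrocytes.

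The first comparison asked which receptors separate centrocytes from centroblasts in control mice. Ccr6, Ccr7, Ccbp2, S1pr1, Gpr183 and Cxcr5 were higher in centrocytes, S1pr4 was lower, and S1pr2 did not pass. Thus 7 of the 8 members tested were called by limma at an adjusted p under 0.05, 6 higher and 1 lower. Over all tested genes 30.7% were called, 21.2% higher and 9.48% lower. The median log2 difference was 1.15 over the 8 members and 0.14 over all tested genes.

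Among the chemokine receptors, Ccr6 read 1.80, 3.85, 1.91, 2.32 and 3.11 TPM in control centroblasts 1 to 5. In control centrocytes it read 43.3, 98.0, 44.1, 40.2 and 55.4 TPM, so that the lowest centrocyte library was far above the highest centroblast library. The log2 difference was 3.94 ± 0.24 (SE; limma adjusted p = 1.97e-10). Ccr7 read 3.79, 6.14, 5.04, 3.55 and 4.07 TPM in control centroblasts against 12.8, 19.5, 9.92, 10.3 and 13.7 TPM in control centrocytes. The groups did not overlap, at a difference of 1.35 ± 0.24 (adjusted p = 1.91e-04, limma). For Ccbp2 control centroblasts held 17.0, 20.7, 11.9, 20.8 and 16.3 TPM and control centrocytes 37.2, 46.1, 40.4, 39.0 and 41.3 TPM. All 5 centrocyte libraries were higher, at 1.21 ± 0.16 on the log2 scale (adjusted p = 6.77e-06, limma). Cxcr5 was abundant in both populations, with 253, 308, 270, 293 and 284 TPM in control centroblasts and 389, 465, 456, 412 and 445 TPM in control centrocytes. Its difference was smaller, 0.62 ± 0.12 (adjusted p = 4.05e-04, limma), again without overlap.

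Cxcr4 served in the gate. Its transcript read 574, 622, 546, 565 and 568 TPM in control centroblasts and 324, 311, 277, 312 and 298 TPM in control centrocytes. The gate for CXCR4- cells thus held libraries in which Cxcr4 was still among the more abundant transcripts, at rank 550, and the log2 difference was -0.92.

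Among the lipid receptors, S1pr1 read 19.4, 25.4, 21.4, 21.3 and 23.9 TPM in control centroblasts and 41.2, 66.9, 44.5, 38.9 and 56.5 TPM in control centrocytes. All centrocyte libraries were higher, and the difference was 1.10 ± 0.20 (adjusted p = 2.71e-04, limma). Gpr183 read 10.9, 9.40, 5.88, 5.81 and 7.81 TPM against 16.3, 25.2, 15.7, 17.4 and 22.9 TPM, with no overlap and a difference of 1.21 ± 0.17 (adjusted p = 2.62e-05, limma). S1pr4 went the other way, from 39.7, 39.3, 40.8, 42.6 and 48.9 TPM in control centroblasts to 26.0, 37.8, 26.9, 28.9 and 33.9 TPM in control centrocytes. Its groups did not overlap, at -0.46 ± 0.14 (adjusted p = 0.0185, limma). S1pr2 read 344, 357, 429, 446 and 419 TPM against 330, 247, 331, 318 and 345 TPM, and the highest centrocyte library reached the lowest centroblast library. Its difference was -0.35 ± 0.13 (adjusted p = 0.051, limma; 95% interval -0.62 to -0.07).

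Groups without overlap were counted for 6 members with higher and 1 with lower centrocyte values, against 26.5% of all tested genes in either direction, 17% higher and 9.51% lower. The S1pr4 call was lost without centroblast control 5 (adjusted p = 0.0558) or without centrocyte control 3 (adjusted p = 0.0543). S1pr2 passed in 12 of 31 alternatives, for instance when centroblast controls 1 or 2 or any of centroblast mutants 1, 2, 4 or 5 was left out (adjusted p = 0.0148 to 0.0498). Over all 31 its limma adjusted p ran from 0.0012 (array weights) to 0.158, and with median-of-ratios scaling it was 0.00167, at -0.49.

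Markers of several other cell types moved with the zones, most of them upward in centrocytes. The 9 markers of naive and resting B cells (Klf2 among them, Ccr7 and Gpr183 left out) summed to 1185 to 1449 TPM in control centroblasts and 2051 to 2656 TPM in control centrocytes, and 8 of the 9 were called higher. The 6 memory B cell markers besides Ccr6 summed to 124 to 173 and 194 to 294 TPM, with 4 called higher and 1 lower. Of the 12 tested markers of macrophages, monocytes and neutrophils 10 were higher. Their list of 15 summed to 229 to 337 and 463 to 633 TPM, most of it Cybb, and Csf1r was 2.73 ± 0.624 and 13.7 ± 5.06 TPM. The 4 tested T cell markers were higher as well, in a list of 11 that summed to 105 to 236 and 184 to 306 TPM, most of it Lck, with Cd3e at 0.0551 ± 0.0755 and 0.613 ± 0.318 TPM. The plasma cell sum went the other way, from 1404 to 1789 TPM in control centroblasts to 825 to 1051 TPM in control centrocytes. Of the 6 tested plasma cell markers, however, 2 were called higher and 1 lower. Erythroid sums were alike, at 135 ± 93.6 and 138 ± 89.8 TPM. The part of these cells in the receptor differences was not tested.

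In Myd88L252P mice 7 of 8 members were again called between the zones by limma, 6 higher and 1 lower in centrocytes, where 61.5% of all tested genes were called, 48.8% higher and 12.6% lower. The median log2 difference was 1.96 over the 8 members against 0.34 over all tested genes. Ccr6 differed by 4.80 ± 0.24 (adjusted p = 5.69e-12), Ccbp2 by 2.28 ± 0.16 (adjusted p = 5.99e-10), Ccr7 by 2.15 ± 0.24 (adjusted p = 2.95e-07) and Cxcr5 by 0.95 ± 0.12 (adjusted p = 1.35e-06). Among the lipid receptors S1pr1 differed by 2.004 ± 0.20 (adjusted p = 7.03e-08) and Gpr183 by 1.91 ± 0.17 (adjusted p = 2.67e-08). S1pr2 was lower in centrocytes by -0.38 ± 0.13 (adjusted p = 0.0179), although its groups overlapped. S1pr4 did not pass in mutants, at -0.05 ± 0.14 (adjusted p = 0.755; 95% interval -0.35 to 0.24). Cxcr4, with no test, differed by -1.19. Groups did not overlap for 6 members that were higher and 0 that were lower, against 36.6% of all tested genes, 28.7% higher and 7.91% lower. The S1pr2 call was lost without centroblast mutant 1 (adjusted p = 0.0529), without centroblast mutant 2 (adjusted p = 0.0592) and with only the groups compared in the fit (adjusted p = 0.0503). The S1pr2 difference was larger without centroblast mutants 4 and 5, at -0.61 (adjusted p = 1.20e-04), and with median-of-ratios scaling, at -0.73 (adjusted p = 1.34e-05). Without centroblast mutants 4 and 5 the other differences were 4.56 for Ccr6, 2.22 for Ccbp2, 1.84 for Gpr183, 1.80 for Ccr7, 1.65 for S1pr1 and 0.72 for Cxcr5, all of which passed, and 0.07 for S1pr4, which did not (adjusted p = 0.703). With median-of-ratios scaling the median over all tested genes was 0.01 in controls and 0.02 in mutants, and the 6 members that were higher in centrocytes passed in both genotypes under this and the other 30 alternatives. S1pr4 with that scaling was at -0.60 in controls (limma adjusted p = 0.0178) and at -0.40 in mutants (adjusted p = 0.0725).

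**Figure D2:**
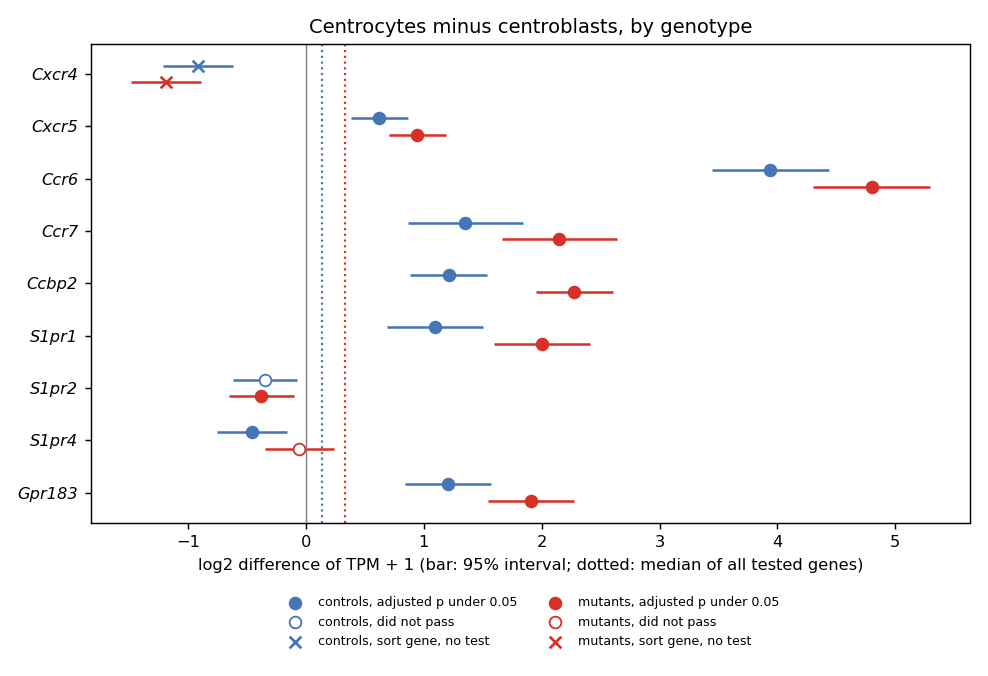
The plot shows, for each receptor gene, the log2 difference of TPM + 1 between centrocytes and centroblasts in controls and in mutants, with its 95% interval as a line. Filled points passed at an adjusted p under 0.05, open points did not, crosses mark the sort gene Cxcr4, and dotted lines give the medians of all tested genes (0.14 and 0.34). Ccr6 lies farthest to the right at 3.94 and 4.80, while S1pr2 and S1pr4 lie left of 0.

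The next comparison asked which receptors differed with Myd88L252P in centroblasts. Ccbp2 and Cxcr4 fell, Ccbp2 to a mean ratio of 0.453 and Cxcr4 to 0.689 of the control mean. The other 7 members did not pass. Thus 2 of 9 members were called by limma, 0 higher and 2 lower, where 4.29% of all tested genes were called, 0.905% higher and 3.38% lower. The same 2 members were the ones whose groups did not overlap, against 3.74% of all tested genes, 0.755% higher and 2.99% lower. The median log2 change was -0.32 over the members and -0.16 over all tested genes. Without centroblast mutants 4 and 5 the called genes numbered 242 higher and 164 lower, in place of 103 and 385, and the median over all tested genes was -0.02.

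In mutant centroblasts Ccbp2 read 10.3, 5.85, 8.57, 8.80 and 5.75 TPM, a mean of 7.86 ± 1.99 against 17.3 ± 3.70 in controls (SD, n = 5). Every mutant library was below every control library, and the log2 change was -1.05 ± 0.16 (SE; limma adjusted p = 0.00109). The fall passed in all 30 alternatives, with adjusted p-values up to 0.0498. Cxcr4 read 507, 443, 475, 323 and 234 TPM in mutant centroblasts, a mean of 396 ± 114 against 575 ± 28.3 in controls, although both genotypes had been sorted as CXCR4+. Libraries 4 and 5 were the lowest, and the change was -0.59 ± 0.14 (adjusted p = 0.027, limma). Without these 2 libraries it was smaller, -0.28 (adjusted p = 0.0427), whereas Ccbp2 was at -0.99 (adjusted p = 0.00205). The Cxcr4 call was lost without centroblast control 2 (adjusted p = 0.074), control 4 (0.0562), control 5 (0.0596) or centroblast mutant 4 (0.0708), and with only the centroblast groups in the fit (0.209).

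S1pr1 read 22.1, 15.6, 18.3, 10.6 and 8.42 TPM in mutant centroblasts, at -0.61 ± 0.20 (adjusted p = 0.0703, limma). S1pr4 read 29.6, 27.8, 27.3, 30.6 and 40.7 TPM, at -0.44 ± 0.14 (adjusted p = 0.0724, limma). Both had 1 mutant library within the range of the controls, library 1 for S1pr1 and library 5 for S1pr4. Cxcr5 held 284, 254, 252.2, 199 and 156 TPM, at -0.32 ± 0.12 (adjusted p = 0.0885, limma). When centroblast mutant 1 was left out, S1pr1, Cxcr5 and S1pr4 passed as well (limma adjusted p = 0.00911, 0.0143 and 0.0451), which made 5 members called. Calls rose over all genes in that fit, to 422 higher and 2680 lower of the 11386 tested, in place of 103 and 385. Without centroblast mutants 4 and 5 there were 3, with S1pr4 at -0.56 (adjusted p = 0.0328), and S1pr1 and Cxcr5 were at -0.25 and -0.09.

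S1pr2, the receptor that confines cells to the germinal centre, ranged from 260 to 459 TPM in mutant centroblasts, around and across the control range. Its change was -0.13 ± 0.13 (adjusted p = 0.515, limma; 95% interval -0.40 to 0.15), and it turned to 0.11 without centroblast mutants 4 and 5. Gpr183 ranged from 4.94 to 7.91 TPM, at -0.25 ± 0.17 (adjusted p = 0.325, limma). Ccr6 (2.06 to 5.54 TPM) and Ccr7 (3.02 to 7.94 TPM) stayed at low levels, each at 0.22 ± 0.24 (adjusted p = 0.532 and 0.519, limma). Without centroblast mutants 4 and 5 none of the 3 passed, at 0.46 for Ccr6 (adjusted p = 0.46), 0.57 for Ccr7 (adjusted p = 0.196) and -0.18 for Gpr183 (adjusted p = 0.757).

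Markers of naive and resting B cells, summed without the receptors, ran from 883 to 1230 TPM in mutant centroblasts against 1185 to 1449 TPM in controls, and 4 of the 9 were called lower. Erythroid transcripts summed to 559 ± 196 TPM in mutant centroblasts against 135 ± 93.6 TPM in controls, and 3 of the 4 tested were called higher. The 11 T cell markers summed to 207 ± 36.0 TPM in mutant centroblasts against 153 ± 52.0 TPM in controls, with 0 of the 4 tested called. The part of any of these cells in the receptor changes was not tested.

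The third comparison asked the same in centrocytes. Ccr6 and Ccr7 rose, to mean ratios of 2.03 and 2.13, and Cxcr4 fell to 0.55 of the control mean. Cxcr5 and Ccbp2 had nearly the same means in both genotypes. In all, 3 of 9 members were called by limma, 2 higher and 1 lower, where 1.2% of all tested genes were called, 0.896% higher and 0.307% lower. Only Cxcr4 had groups that did not overlap, as did 4.63% of all tested genes, 2.63% higher and 1.99% lower. The median log2 change was 0.01 over the members and 0.02 over all tested genes.

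Cxcr4 read 179, 180, 157, 174 and 147 TPM in mutant centrocytes, a mean of 167 ± 14.8 TPM (SD, n = 5), the lowest of the 4 groups. The highest mutant library lay well under the lowest control library at 277 TPM, and the change was -0.86 ± 0.14 (SE; limma adjusted p = 0.00277). It passed in all 30 alternatives, with adjusted p-values up to 0.0124. Both genotypes had been sorted as CXCR4-. Ccr6 read 128, 120, 129, 94.3 and 99.7 TPM in mutant centrocytes, and library 4 lay below control library 2, which at 98.0 TPM stood far above the other controls. The rise was 1.08 ± 0.24 (adjusted p = 0.0246, limma). Ccr7 read 29.1, 28.9, 42.6, 18.5 and 22.2 TPM, with mutant library 4 again below control library 2 (19.5 TPM), and rose by 1.02 ± 0.24 (adjusted p = 0.0311, limma). Both calls were lost when 1 of several libraries was left out. Without any 1 of centrocyte controls 1, 3, 4 and 5 and centrocyte mutants 1, 2 and 3, adjusted p-values were 0.0558 to 0.0926 for Ccr6 and 0.0652 to 0.134 for Ccr7, and both missed the threshold with a pseudocount of 0.1 (0.0766 and 0.0628).

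Gpr183 read 33.6, 27.8, 26.4, 22.1 and 24.8 TPM in mutant centrocytes, with a mean of 27.0 ± 4.28 TPM against 19.5 ± 4.29 TPM in controls. The groups overlapped, and at 0.46 ± 0.17 (adjusted p = 0.31, limma; 95% interval 0.09 to 0.82) it did not pass. S1pr1 held 76.0, 56.8, 66.8, 51.9 and 51.6 TPM, at 0.30 ± 0.20 (adjusted p = 0.787, limma). Ccbp2, which fell in centroblasts, held 37.5, 36.1, 50.6, 38.4 and 44.2 TPM in mutant centrocytes, at 0.01 ± 0.16 (adjusted p = 0.9998, limma; 95% interval -0.31 to 0.34). Cxcr5 was at 433 ± 25.9 TPM against 433 ± 31.8 TPM, with a 95% interval of the log2 change from -0.24 to 0.24. S1pr2 (251 to 321 TPM, at -0.16 ± 0.13) and S1pr4 (21.5 to 37.3 TPM, at -0.03 ± 0.14) overlapped with the controls and did not pass.

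The 6 memory B cell markers besides Ccr6 summed to 265 to 357 TPM in mutant centrocytes against 194 to 294 TPM in controls, with 0 of 6 called by limma. The sum over naive and resting B cell markers was 2064 to 2575 TPM against 2051 to 2656 TPM. Germinal centre B cell markers summed to 11308 to 13026 TPM in mutant centrocytes against 13425 to 14601 TPM in controls, without overlap. Of these 12 markers 0 were called. Erythroid transcripts summed to 400 ± 131 TPM in mutant centrocytes against 138 ± 89.8 TPM in controls, and 1 of the 4 tested was called higher. Control library 2, the highest control for 7 of the 9 receptors and the lowest for S1pr2, also had the highest memory marker sum of the controls, 294 TPM. This library was highest as well for the macrophage, monocyte and neutrophil (633 TPM), dendritic cell (88.6), NK cell (8.29) and stroma and endothelium (108) sums. It was the lowest control for the germinal centre B cell, plasma cell, T cell and erythroid sums. The part of any of these cells in the receptor values was not tested.

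**Figure D3:**
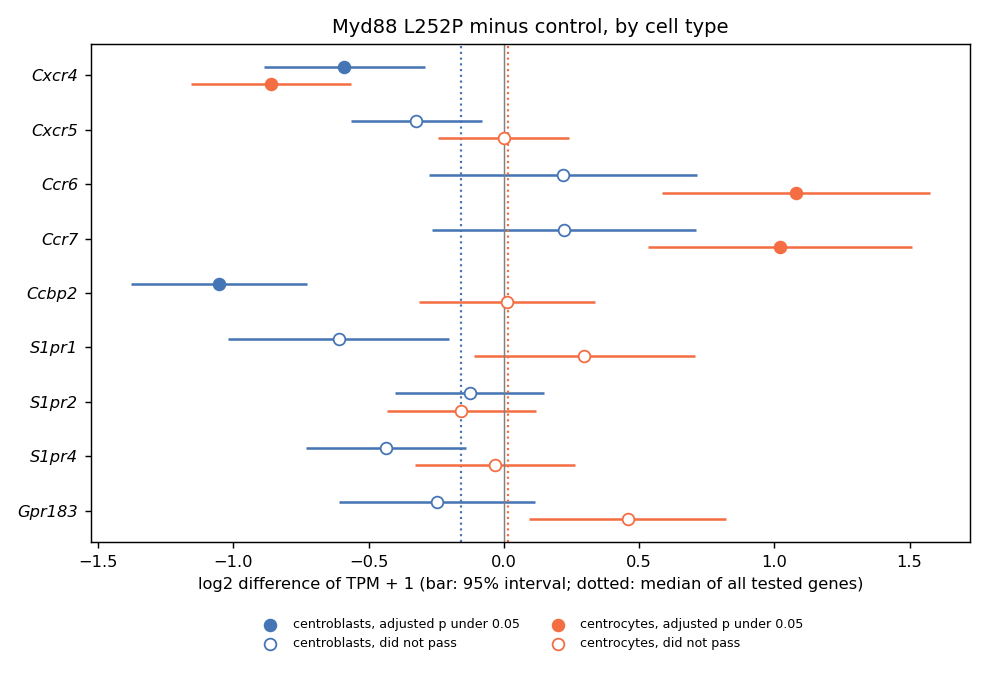
The plot gives, for each receptor gene, the log2 difference of TPM + 1 between mutants and controls in centroblasts and in centrocytes, with 95% intervals as lines. Filled points passed at an adjusted p under 0.05 and dotted lines give the medians of all tested genes (-0.16 and 0.02). Cxcr4 lies left of 0 in both populations, Ccbp2 lies at -1.05 in centroblasts and 0.01 in centrocytes, and Ccr6 and Ccr7 lie at 1.08 and 1.02 in centrocytes.

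Whether the genotype changed a receptor differently in the 2 populations was tested as the difference of the log2 changes (centrocytes minus centroblasts), which is also the difference of the zone effects between the genotypes. With limma 0 of 9 members passed, where 0.0176% of all tested genes were called, 0% higher and 0.0176% lower. An unadjusted p under 0.05 was found for 5 of 9 members and for 1322 of all 11386 tested genes. The largest difference among the members was that of Ccbp2, 1.07 ± 0.22 (unadjusted p = 8.65e-05, adjusted p = 0.219). S1pr1 (0.91 ± 0.28), Ccr6 (0.86 ± 0.34), Ccr7 (0.80 ± 0.33) and Gpr183 (0.71 ± 0.25) followed, each with an adjusted p of 0.403. Cxcr4 was at -0.27 ± 0.20 (adjusted p = 0.472). Ccbp2 passed without centroblast control 3 (adjusted p = 0.0449) or without centroblast mutant 1 (adjusted p = 0.0332), and Cxcr4 passed at -0.59 without centroblast mutants 4 and 5 (adjusted p = 0.0282). Without those 2 libraries S1pr1 was at 0.55, Ccr6 at 0.62 and Ccr7 at 0.45, and none passed. With array weights Ccbp2 and Cxcr4 both passed (limma adjusted p = 0.0469 for each). The median difference over the members was 0.71 and that over all tested genes 0.18.

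**Figure D4:**
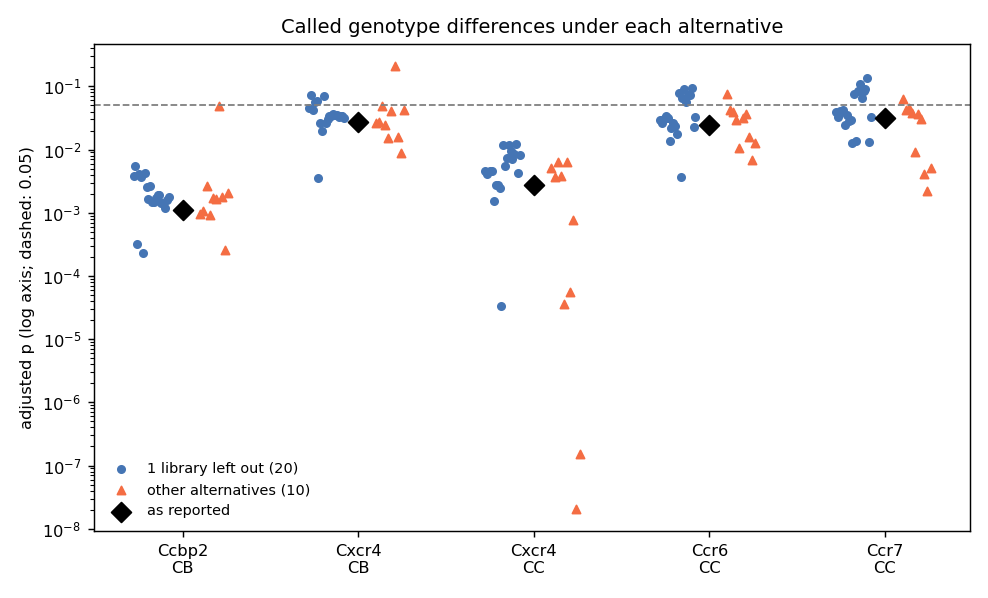
The plot shows, on a log axis, the adjusted p of the 5 called genotype differences as reported (diamonds), with each of the 20 libraries left out in turn (circles) and under the 10 other alternatives (triangles), with the threshold of 0.05 as a dashed line. Ccbp2 in centroblasts and Cxcr4 in centrocytes stay under the line throughout, and Ccr6 and Ccr7 in centrocytes cross it in 8 alternatives each.

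Across the 4 groups, Cxcr4 was ordered from mutant centrocytes through control centrocytes and mutant centroblasts to control centroblasts. Control centrocytes and mutant centroblasts overlapped and the other neighbours did not. Cxcr5, Ccr6, Ccr7, S1pr1 and Gpr183 shared a split of both centroblast groups below both centrocyte groups, with overlap between the genotypes inside each population. Ccbp2 had 3 separate levels, mutant centroblasts, control centroblasts and the 2 centrocyte groups, which overlapped each other. S1pr2 and S1pr4 had overlap between every pair of neighbours in their order.

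The genes with the most similar pattern over the 20 libraries were listed by the root mean square difference of centred log2(TPM + 1), among 8775 candidates. Cxcr5 had the smallest distances, to Stt3b (0.086), Mef2c (0.10) and Bri3bp (0.10), against 0.37 for the median candidate. S1pr2 was nearest to Th1l (0.13), Tcf19 (0.14) and Asf1b (0.14), and S1pr4 to Tnfaip8l2 (0.17), Reep5 (0.20) and Snx20 (0.21). S1pr1 was nearest to Arhgef18 (0.18), Notch2 (0.21) and Tagap (0.21), and Gpr183 to Anxa6 (0.19), Itgb7 (0.21) and Gpr65 (0.22). Ccr7 was nearest to Irgm1 (0.20), Gbp7 (0.22) and Tlr3 (0.26). Ccbp2 was nearest to Dock10 (0.24), S1pr3 (0.27) and Ppl (0.28), and Cxcr4 to Nek2 (0.23), Polh (0.24) and Krt222 (0.24). In raw distance the candidates were farther from Ccr6, whose nearest were Fcrl5 (0.73), Ccnd2 (0.79) and Tlr7 (0.79), with 2.14 for the median candidate. Such distances grow with a gene's own spread. On the same scale that spread was 2.25 for Ccr6, 1.02 for Ccr7, 0.98 for Ccbp2, 0.87 for S1pr1 and 0.84 for Gpr183. It was 0.68 for Cxcr4, 0.44 for Cxcr5, 0.29 for S1pr4 and 0.28 for S1pr2, so the distances do not rank the members by closeness of match.

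Around the receptors, 89 other genes of the same pathways were listed, and 62 of them passed the filter on low values. The 5 chemokine ligand genes listed (Cxcl12, Cxcl13, Ccl19, Ccl21a and Ccl20) did not. Between the zones of controls 25 of the 62 were higher and 3 lower in centrocytes, with a median of 0.44, where 21.2% and 9.48% of all tested genes were called. Ccrl1, the older symbol of the atypical receptor gene Ackr4, ran opposite to Ccbp2, at 99.9 ± 9.11 TPM in control centroblasts and 36.0 ± 3.42 TPM in control centrocytes (-1.45 ± 0.12, limma adjusted p = 3.44e-08). Of the other lipid and positioning receptors 11 of 15 were higher and 0 lower, among them S1pr3 (1.47, adjusted p = 2.50e-07), Gpr55 (1.87, adjusted p = 5.00e-07), Gpr65 (1.25, adjusted p = 4.69e-06) and the lysophosphatidylserine receptor gene Gpr34 (1.78, adjusted p = 2.70e-05).

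In mutant centroblasts 0 of the 62 rose and 8 fell, where 0.905% of all tested genes rose and 3.38% fell, and the median was -0.23 against -0.16. With centroblast mutants 4 and 5 left out, 1 rose and 6 fell, where 242 of all tested genes rose and 164 fell. The median was then -0.08 against -0.02. Klf2, a transcription factor that activates S1pr1 in lymphocytes, fell from 38.9 ± 9.77 to 16.4 ± 5.08 TPM (-1.21 ± 0.20, limma adjusted p = 0.002) and passed in all 30 alternatives. S1pr3 fell from 19.8 ± 1.36 to 11.5 ± 3.01 TPM (-0.78 ± 0.14, adjusted p = 0.006) and missed the threshold with only the groups compared in the fit (adjusted p = 0.108). The other 6 were Gpr174 (-0.81), Cnr2 (-0.58), Pik3cg (-0.67), Rgs19 (-0.32), Rgs1 (-1.42) and Cd69, whose protein holds S1PR1 inside the cell (-0.69), with adjusted p-values of 0.028 to 0.0436. Leaving out 1 library ended the call for 2 of 20 libraries with Gpr174, 4 with Pik3cg, 5 with Cnr2, 7 with Rgs19, 9 with Cd69 and 16 with Rgs1, at adjusted p-values up to 0.119. Over all 30 alternatives the call was lost in 4 with Gpr174, 7 with Pik3cg and 8 with Cnr2. Rgs19 lost it in 12, Cd69 in 13 and Rgs1 in 19, and adjusted p-values reached 0.257 (limma). Of these 8, with centroblast mutants 4 and 5 left out, Klf2 (-1.09), S1pr3 (-0.55), Gpr174 (-1.17), Cd69 (-0.96) and Rgs1 (-2.21) passed, while Cnr2 (-0.32), Pik3cg (-0.37) and Rgs19 (-0.19) did not. Gna13, which encodes the G protein of S1PR2, was at -0.54 ± 0.19 (adjusted p = 0.0867), its exchange factor gene Arhgef1 at -0.20 ± 0.13 (adjusted p = 0.266) and Foxo1 at -0.59 ± 0.18 (adjusted p = 0.0655). None of these 3 passed, and without centroblast mutants 4 and 5 they were at -0.08, -0.08 and -0.21.

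In mutant centrocytes 1 of the 62 rose and 2 fell, where 0.896% of all tested genes rose and 0.307% fell, and the median was -0.02. A fit without centroblast mutants 4 and 5 called 4 that rose and 4 that fell. Over all 11386 tested genes that fit called 258 higher and 127 lower, in place of 102 and 35. Gpr34 rose from 4.74 ± 3.09 to 11.5 ± 3.09 TPM (1.21 ± 0.26, limma adjusted p = 0.0209), Ccrl1 fell from 36.0 ± 3.42 to 24.8 ± 3.81 TPM (-0.53 ± 0.12, adjusted p = 0.0344), and Rgs2, a brake on G protein signalling, fell from 290 ± 14.8 to 190 ± 45.7 TPM (-0.64 ± 0.14, adjusted p = 0.0209). Each call was lost on leaving out any 1 of 5 to 7 of the 20 libraries, at adjusted p-values up to 0.0879 for Gpr34, 0.136 for Ccrl1 and 0.0901 for Rgs2. Over all 30 alternatives Gpr34 lost its call in 8, Ccrl1 in 7 and Rgs2 in 6, with Gpr34 at adjusted p-values up to 0.255 (limma). Klf2 was at -0.45 ± 0.20 (adjusted p = 0.432), Cd69 at -0.56 ± 0.19 (adjusted p = 0.194), and Foxo1, Gna13 and Arhgef1 at -0.17, -0.18 and -0.08, and none of these 5 passed. With limma 0 of the 62 passed for the difference of the genotype effects. An unadjusted p under 0.05 was found for 17 of the 62 and for 1322 of all 11386 tested genes.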

How the data were processed

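Samples were grouped by their sort and genotype labels. The values are TPM as deposited by the authors, 1 value per gene symbol. The submitters' processing notes name STAR and mm10, and the labels' protocols a stranded mRNA kit. No source used here gives versions, the annotation or the read counter. TPM keeps no read depth, so there are no counting intervals. Differences were tested two-sided with limma 3.58.1 in R 4.3.3, with 4 group means fitted to log2(TPM + 1) of all 20 libraries (16 residual degrees of freedom, moderated with a trend and robustly). The Benjamini-Hochberg adjustment ran over the 11386 genes that reached 1 TPM in 5 or more libraries, and a gene is called at an adjusted p under 0.05. Folds on this scale understate those of low genes. The members and lists were chosen with earlier results of these data known. Named genes were the 9 members, up to 4 called genes per pathway list and comparison, Klf2, Foxo1, Gna13, Arhgef1 and Cd69, and for each member the 3 nearest genes in pattern among those that averaged 5 TPM or more in 1 group. The fit was tested on simulated data. Alternatives were pseudocounts, filters, scaling, spread, libraries in the fit, weights, replicate numbers as a block and leaving out libraries.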

Additional observations from a re-analysis of the deposited data

Results flagged for a closer look

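In groups of 5 libraries, 4 of the 36 combinations of a member and a group had 1 library far from the others, judged by the gap to its nearest neighbour as a share of the range (over 0.71). Chance gives about 1 in 20 such groups. Ccr6 was 98.0 TPM in centrocyte control 2, where the next control had 55.4 TPM. S1pr2 was lowest in that same library, 247 TPM against 318 TPM in the next. Cxcr5 was 387 TPM in centrocyte mutant 2 against 439 TPM in the next lowest library. S1pr4 was 40.7 TPM in centroblast mutant 5 against 30.6 TPM in the next highest, whereas that library was the lowest of its group for the other 8 members.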

How the results depend on the processing

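Of the values of the members under the alternatives, 1285 kept their direction and side of the threshold (for Cxcr4 between the zones, their value within the spread), 31 changed sign without being called in either fit, 24 gained a call, 26 lost one, 0 turned a called direction, and 2 values of Cxcr4 between the zones of mutants moved beyond the spread, to -1.54 (median-of-ratios scaling) and -1.50 (without centroblast mutants 4 and 5). For the genotype in centroblasts, 1 member was called with only the groups compared in the fit, and 1 to 5 with 1 library left out. For centrocytes 1 was called with a pseudocount of 0.1, and 1 to 3 with 1 library left out. For the difference 2 were called with array weights, 1 without centroblast mutants 4 and 5, and 0 to 1 with 1 library left out. Between the zones 6 to 8 were called in controls and 6 to 7 in mutants. Of the other named genes, Rgs19 between the zones of mutants turned to -0.24 with median-of-ratios scaling and Gna13 to -0.23 without centroblast mutants 4 and 5, and the cause was not tested. Median-of-ratios scaling moved the median of all genes in centroblasts from -0.16 to 0.01. It left Cxcr4 at -0.40 (adjusted p = 0.015, limma) and Ccbp2 at -0.89 (adjusted p = 0.00169), and S1pr2 turned to 0.06. Called genes split 286 higher to 353 lower there (103 to 385 as reported), 2048 to 2009 between the zones of controls (2419 to 1079) and 3376 to 3281 in mutants (5561 to 1436). With only the groups compared, 27 genes were called in centroblasts (488 as reported) and 302 in centrocytes (137). Array weights gave 878, 662 and 9 for the genotype in centroblasts, centrocytes and the difference, and 6496 between the zones of controls (3498 as reported). Without centroblast mutants 4 and 5 these were 406 in centroblasts (242 higher and 164 lower), 385 in centrocytes, 4 for the difference (2 as reported) and 5418 between the zones of controls. No filter gave 270 in centroblasts, and a pseudocount of 0.1 and a filter of 5 TPM gave 83 and 84 in centrocytes. Leaving out 1 library gave 147 to 3102 in centroblasts, the highest without centroblast mutant 1, and 46 to 237 in centrocytes. For the difference, scaling and a fit with neither trend nor robust moderation each gave 0.

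In their deviations, same-numbered libraries of the 2 populations correlated over 0.1 in 4 of 5 pairs of each genotype. The range was -0.0168 to 0.259 in controls and -2.93e-05 to 0.269 in mutants. The mean over pairs with unlike numbers was lower, at -0.0404 in controls and -0.0433 in mutants. Because each gene was centred within its group, that mean is nearly fixed by the same-numbered values and adds no separate support. By their own correlations same-numbered libraries tended to be alike, but the labels do not say that a number marks a mouse. The main fit did not pair libraries, and fits with the number as a block are given beside it. With the number as a replicate block over the 4 groups, 3 members were called in centroblasts (S1pr4 at an adjusted p of 0.0497, limma), 3 in centrocytes and 0 for the difference, and 793, 242 and 0 of all genes. With genotype by number as the block, 8 members were called between the zones of controls (S1pr2 at 0.0356), 7 in mutants and 0 for the difference (14 of all genes).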
